A study of Mus musculus with 15 samples.

Results

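The 8 genes described here encode parts of the contractile machinery of smooth muscle: Acta2, Myh11, Tagln, Des, Cnn1, Actg2, Mylk and Lmod1. They were taken as a list of names, put together with earlier results of these data known, and each matched 1 of the 37620 Ensembl identifiers in the deposited count tables. RNA came from the ileum, the last stretch of the small intestine, of adult mice in which the transcription factor gene Rfx6 was to be deleted. The libraries labelled mutant carried the genotype Rfx6f/f; Vilin-CreERT2, in which both Rfx6 alleles are flanked by loxP sites and the tamoxifen-inducible Cre recombinase is driven by the Villin promoter, which is active in intestinal epithelium and not in its muscle. Controls had no Cre. At 8 days after tamoxifen there were 3 Rfx6f/f controls and 4 libraries labelled mutant, and at 3 months there were 4 controls, 2 Rfx6f/f (replicates 1 and 4) and 2 Rfx6f/+ (replicates 2 and 3), and 4 libraries labelled mutant. Adult mice received 10 mg of tamoxifen by gavage, as the protocols give it without setting controls apart. The labels do not state that each library is a separate animal, so the p-values measure the spread between these libraries.

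The ileum is wrapped in a circular and a longitudinal coat of smooth muscle, with a thin muscle layer beneath the mucosa and more muscle around blood vessels. In these cells calcium activates a kinase that phosphorylates the light chain of smooth muscle myosin, and the myosin then pulls on actin filaments that are anchored to dense bodies and to an intermediate filament network. Most genes of this machinery are controlled by serum response factor, the product of Srf, together with its muscle coactivator myocardin, the product of Myocd. Serum response factor binds a short DNA element called the CArG box.

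Rfx6, counted over the whole gene, did not fall where the label says mutant, so it does not check the labels. Its total counts were 50 to 84 in the controls and 44 to 105 in the libraries labelled mutant at 8 days, and 38 to 52 and 65 to 106 at 3 months, where it was higher by 0.72 on the log2 scale (SE 0.17), with an edgeR adjusted p of 0.0347. The hormone gene Gcg was lower at both times, with log2 fold changes of -4.15 (SE 0.32, edgeR adjusted p 0.00342) and -9.47 (SE 0.40, edgeR adjusted p 9.66e-06). Library totals, in units of 1000000 counts, were 30.5 to 54.5 at 8 days and 26.1 to 36.3 at 3 months. The members were far from the counting floor, with 690 counts in the lowest and 79213 in the highest case over all genes and libraries, and all 8 passed the filter on low counts. Levels below are counts per 1000000 (CPM) of the library size scaled by the trimmed mean of M values (TMM).

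The promoter sequences are shown because the members share a described regulator. RefSeq promoter sequences, 250 bases before to 50 bases after the annotated start on GRCm38.p6, were found for 5 of the 8 members (Acta2, Des, Cnn1, Mylk and Lmod1). A search of both strands for the CArG box, which reads the same on either strand, found 0 exact matches among these 5, and 1.63% of all 32851 promoters of the same length held one. With up to 1 base off, Acta2 and Lmod1 held 2 matches each and Des, Cnn1 and Mylk held 0, against 21.11% of all promoters with at least 1. The promoter of Acta1, the skeletal muscle paralog of Acta2 described further on, held 1 exact match and 2 with 1 base off. The 3 sequences are given 5′ to 3′ in the direction of transcription with the matches in capitals. The Acta2 matches began 84 and 34 bases before the start, the Lmod1 matches 189 and 164 bases before it, and the Acta1 matches 205, 154 and 73 bases before it, of which the one at 73 was exact. Acta2 lies at chr19:34255324-34255623 on the minus strand, Lmod1 at chr1:135324563-135324862 on the plus strand and Acta1 at chr8:123894726-123895025 on the minus strand.
Acta2: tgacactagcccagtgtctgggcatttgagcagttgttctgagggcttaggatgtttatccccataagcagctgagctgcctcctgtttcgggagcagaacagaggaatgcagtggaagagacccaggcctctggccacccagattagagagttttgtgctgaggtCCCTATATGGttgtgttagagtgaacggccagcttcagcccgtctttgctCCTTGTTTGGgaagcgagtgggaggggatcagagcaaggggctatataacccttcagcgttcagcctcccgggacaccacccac
Lmod1: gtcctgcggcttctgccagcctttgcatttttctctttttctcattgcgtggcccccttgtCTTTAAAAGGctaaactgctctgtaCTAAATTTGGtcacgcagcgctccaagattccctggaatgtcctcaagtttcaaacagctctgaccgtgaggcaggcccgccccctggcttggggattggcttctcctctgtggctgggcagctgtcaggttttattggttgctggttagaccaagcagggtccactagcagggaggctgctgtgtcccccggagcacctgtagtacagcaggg
Acta1: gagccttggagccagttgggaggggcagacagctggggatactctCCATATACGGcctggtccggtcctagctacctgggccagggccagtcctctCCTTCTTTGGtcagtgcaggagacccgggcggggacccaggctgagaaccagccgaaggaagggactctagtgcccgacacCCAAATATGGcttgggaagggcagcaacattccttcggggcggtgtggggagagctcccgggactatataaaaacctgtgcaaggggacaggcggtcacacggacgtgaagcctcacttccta
The matches are descriptions of letters in these windows and say nothing on binding.

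Transcript of the 8 genes was abundant in every library. Together they took 0.255 to 0.368% of all counts in the 8-day controls, 0.293 to 0.459% in the 8-day libraries labelled mutant, 0.215 to 0.267% in the 3-month controls and 0.224 to 0.404% in the 3-month libraries labelled mutant. In RNA of mixed tissue a larger number of muscle cells and more of these transcripts per muscle cell cannot be told apart. Of 8 markers of skeletal and cardiac muscle, 2 (Ckm and Tnnt2) passed the filter on low counts. Myh4, a fast skeletal myosin, had 0 or 1 count in 14 libraries and 513 counts in mutant replicate 3 of 8 days, and cardiac Myl2 had 0 to 3 counts throughout. Smooth muscle transcripts were present in every library, but the labels do not say which layers of the ileum were kept at harvest.

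Scaled to summed exon length, as counts per 1000 bases and per 1000000 counts (RPKM), Acta2 was the highest member in both control groups. In the 8-day controls the median RPKM ran from Acta2 at 233 through Myh11 at 154, Tagln at 127, Actg2 at 114, Mylk at 71.4, Des at 71.0 and Cnn1 at 42.5 to Lmod1 at 9.82. In the 3-month controls the order was Acta2 at 157, Actg2 at 101, Myh11 at 90.8, Tagln at 88.3, Des at 57.7, Mylk at 55.7, Cnn1 at 25.9 and Lmod1 at 6.72. The middle of the order changed place between the cohorts, whereas Acta2 led and Cnn1 and Lmod1 closed it both times. The libraries labelled mutant had 1 order at both times, with Acta2 at 228 and 194, Actg2 at 213 and 139, Myh11 at 168 and 111, Tagln at 149.8 and 106, Des at 99.4 and 69.9, Mylk at 68.7 and 60.6, Cnn1 at 50.9 and 33.1 and Lmod1 at 8.71 and 8.78 at 8 days and 3 months. In the 8-day controls the ranges of neighbours overlapped from Acta2 down to Des, and in the 3-month controls from Actg2 down to Tagln and between Des and Mylk. Lmod1 lay below every other member in every library. Gene lengths came from an annotation other than the authors', so close neighbours such as Des and Mylk are not separated by these values.

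Myh11 encodes the heavy chain of smooth muscle myosin, the motor of contraction. At 8 days it stood at 925.5, 1172 and 1369 CPM in control replicates 1 to 3 and at 1459, 1548, 1069 and 1088 CPM in mutant replicates 1 to 4. At 3 months the controls stood at 622, 712, 669 and 753 CPM and the libraries labelled mutant at 738, 774, 1279 and 908 CPM. The groups overlapped both times, and at 3 months 3 of 4 libraries labelled mutant, replicates 2, 3 and 4, lay above the highest control. The log2 fold change was 0.16 (SE 0.17, edgeR adjusted p 0.893) at 8 days and 0.42 (SE 0.17, edgeR adjusted p 0.133) at 3 months.

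Mylk encodes myosin light chain kinase, which switches the motor on, and it was the steadiest member. At 8 days it stood at 665, 804 and 819.9 CPM in the controls and at 869, 834, 713 and 634 CPM in the libraries labelled mutant. At 3 months the values were 645, 611, 602 and 742 CPM against 615, 623.5, 796 and 742 CPM. Mutant replicate 4 was the lowest library of the 8-day cohort and mutant replicate 3 the highest of the 3-month cohort. The log2 fold changes were -0.00048 (SE 0.13) at 8 days, with a sign that turned under other settings, and 0.09 (SE 0.11) at 3 months, with edgeR adjusted p of 1 and 0.594.

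Acta2 encodes the smooth muscle alpha actin of vessels, gut and activated fibroblasts. At 8 days its level was 328, 511 and 524 CPM in the controls and 545, 635, 379 and 457 CPM in the libraries labelled mutant. At 3 months it was 361.5, 329, 309.9 and 452.5 CPM in the controls and 332, 334, 644.5 and 516.5 CPM in the libraries labelled mutant. Control replicate 1 of 8 days was the low library of its cohort, and mutant replicates 3 and 4 were the high libraries of 3 months, while mutant replicates 1 and 2 sat among the controls. The log2 fold changes were 0.15 (SE 0.21) and 0.33 (SE 0.22), with edgeR adjusted p of 0.93 and 0.354.

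Actg2 encodes the gamma actin of enteric smooth muscle, and it had the largest fold change of the 8 members at both times. At 8 days it stood at 109, 177.5 and 224 CPM in the controls and at 343, 400.5, 177 and 319 CPM in the libraries labelled mutant, of which 3 of 4 exceeded the highest control and replicate 3 did not. At 3 months it stood at 155, 159.6, 137 and 163 CPM in the controls and at 169, 152, 328 and 265 CPM in the libraries labelled mutant, where replicates 1, 3 and 4 exceeded the highest control. The log2 fold change was 0.86 (SE 0.30, unadjusted p 0.0192, edgeR adjusted p 0.472) at 8 days and 0.57 (SE 0.22, unadjusted p 0.0312, edgeR adjusted p 0.131) at 3 months. Neither passed the threshold of an adjusted p under 0.05.

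The balance between both muscle actins was read from their RPKM within each library. The ratio of Actg2 to Acta2 was 0.470, 0.490 and 0.603 in the 8-day controls and 0.887, 0.890, 0.659 and 0.986 in the 8-day libraries labelled mutant, so these groups did not overlap. At 3 months it was 0.606, 0.683, 0.623 and 0.509 in the controls against 0.719, 0.641, 0.717 and 0.723 with the mutant label, where replicate 2 lay within the control range. This ratio was chosen after the values were seen and was not tested. It shows that both actins changed unequally between libraries, not which of them moved.

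Tagln and Cnn1 encode transgelin and calponin, actin-binding proteins of the thin filament. Tagln stood at 171, 251.5 and 274 CPM in the 8-day controls and 316, 361, 210.0 and 279.8 CPM in the 8-day libraries labelled mutant. At 3 months Tagln stood at 171, 179.6, 161 and 196 CPM in the controls and 184, 163, 337 and 236 CPM in the libraries labelled mutant. For both genes mutant replicate 2 was the highest library of 8 days and mutant replicate 3 of 3 months, and control replicate 1 was the lowest of 8 days. Cnn1 stood at 76.96, 116 and 134 CPM in the 8-day controls and 149, 190.1, 93.4 and 129.6 CPM in the 8-day libraries labelled mutant. At 3 months Cnn1 stood at 70.5, 71.5, 64.9 and 87.6 CPM in the controls and 81.00, 67.8, 132 and 99.96 CPM in the libraries labelled mutant. Tagln had log2 fold changes of 0.33 (SE 0.20) and 0.38 (SE 0.20), with edgeR adjusted p of 0.734 and 0.248. Cnn1 had log2 fold changes of 0.36 (SE 0.25) and 0.37 (SE 0.19), with edgeR adjusted p of 0.774 and 0.229. Exons of Tagln overlap Pcsk7 on the opposite strand over 5.43% of their length and the annotated antisense gene Gm48529 over 62.42%, and exons of Des overlap Gm15179 over 5.86%. Those of Mylk overlap the antisense genes E130310I04Rik over 4.87% and Gm21691 over 1.99%. As the strand setting of the counting is not given, reads of these pairs cannot be told apart.

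Lmod1 encodes leiomodin, which starts new actin filaments in smooth muscle, and it was the lowest member. It stood at 32.6, 38.8 and 41.5 CPM in the 8-day controls and 44.3, 38.1, 30.7 and 28.4 CPM in the 8-day libraries labelled mutant. At 3 months it stood at 25.1, 26.2, 26.8 and 30.8 CPM in the controls and 30.7, 31.7, 47.1 and 37.7 CPM in the libraries labelled mutant. Mutant replicates 2, 3 and 4 of 3 months lay above every control of their cohort, and replicate 1 lay just under the highest control. The log2 fold change was -0.09 (SE 0.16, edgeR adjusted p 0.951) at 8 days and 0.44 (SE 0.14, unadjusted p 0.0112, edgeR adjusted p 0.0756) at 3 months, the smallest adjusted p of any member. DESeq2 called it at 3 months, with a log2 fold change of 0.44 and an adjusted p of 0.0274, and over all alternatives its adjusted p ran from 0.0274 to 0.34.

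Des encodes desmin, the intermediate filament that ties the contractile units of muscle together. It stood at 193, 267 and 301 CPM in the 8-day controls and 416.5, 458, 277 and 329.6 CPM in the 8-day libraries labelled mutant, where replicates 1, 2 and 4 exceeded the highest control. At 3 months it stood at 195, 225, 208 and 227 CPM in the controls and 217, 199, 339 and 307.5 CPM in the libraries labelled mutant, where replicates 3 and 4 did so. The log2 fold change was 0.55 (SE 0.20, unadjusted p 0.0232, edgeR adjusted p 0.476) at 8 days and 0.31 (SE 0.16, edgeR adjusted p 0.239) at 3 months.

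**Figure D1:**
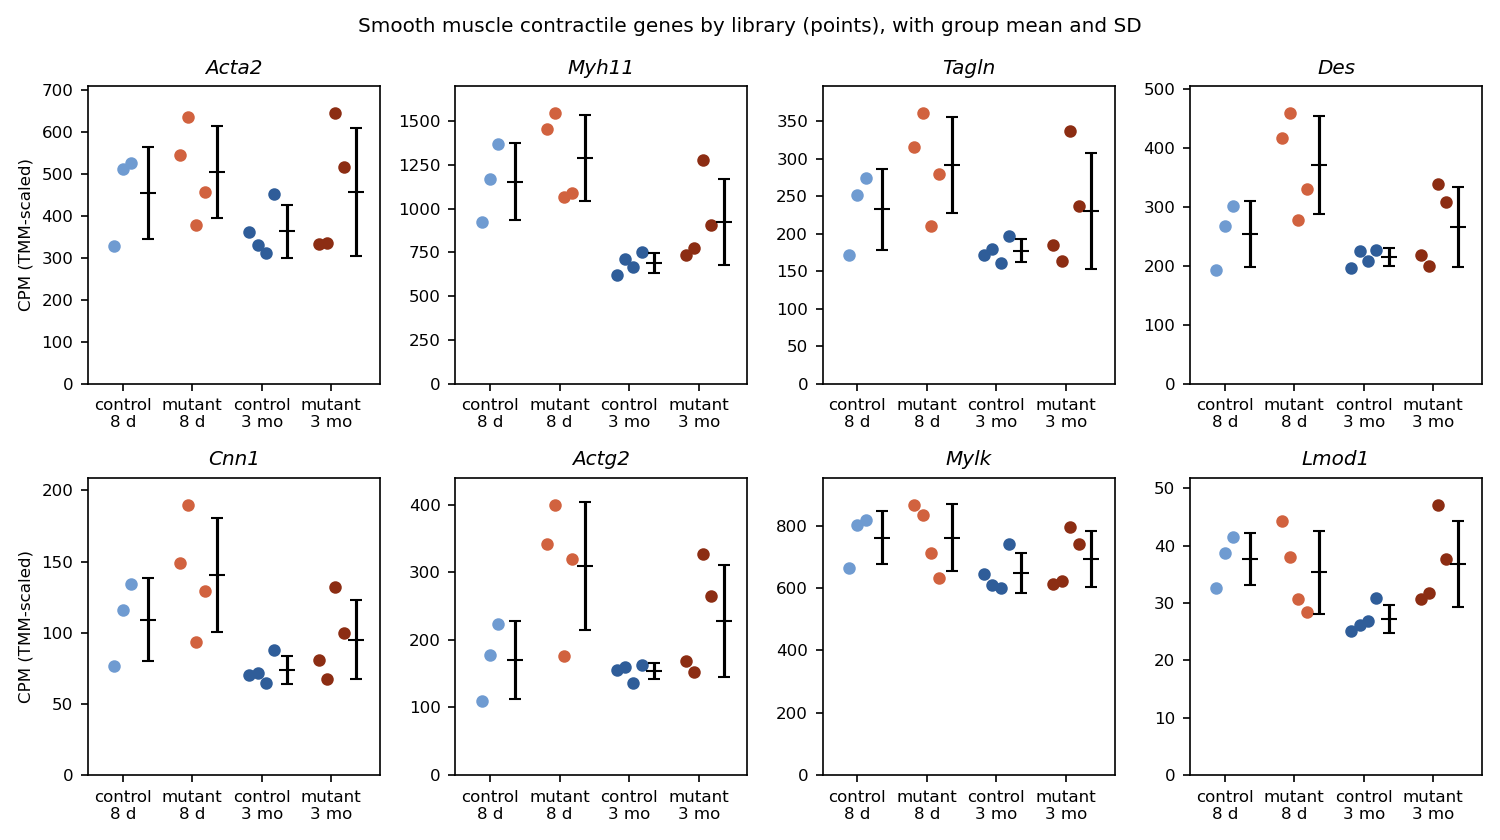
Level of each of the 8 smooth muscle genes in CPM (TMM-scaled library size, linear axis from 0) in every library, by group; points are libraries, and the bars beside them are the group mean and SD. The groups of each cohort overlap for every gene, and mutant replicate 3 is the highest library of 3 months for 8 of 8 genes.

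The design asks whether loss of Rfx6 from the epithelium went with a change in these transcripts at either time. In the edgeR quasi-likelihood test with Benjamini-Hochberg adjustment over all genes tested, 0 of 8 members passed at 8 days, where 0.0915% of all genes did (0.0343% higher and 0.0572% lower), and 0 of 8 at 3 months, where 9.28% did. At an unadjusted p under 0.05 the counts were 2 of 8 at 8 days (Des and Actg2), against 8.8% of all genes, and 3 of 8 at 3 months (Myh11, Actg2 and Lmod1), against 29.4%. DESeq2 called 0 members at 8 days and 1 at 3 months, and limma-voom called 0 both times. The control and mutant ranges overlapped for all 8 members in both cohorts, while they did not for 7.63% of all genes at 8 days (3.84% higher and 3.8% lower) and 19.2% at 3 months (9.7% higher and 9.53% lower).

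Most point estimates lay above 0. At 8 days 6 of 8 members had a log2 fold change above 0, against 49.3% of all genes, and their median was 0.24 against -0.0020 over all genes. At 3 months 8 of 8 lay above 0, against 51.2%, with a median of 0.38 against 0.0077. These numbers were 6 of 8 and 8 of 8 also under the size factors of DESeq2 and with TMM computed without muscle genes. At 8 days 7 of 8 lay above 0 with 10 counts in every library and in the joint fit, and 5 to 8 of 8 with single libraries left out, the 5 without control replicate 1. The members moved together from library to library, so they are not 8 separate observations. Single libraries shifted the medians. At 8 days the median was 0.086 without control replicate 1, 0.38 without control replicate 3 and 0.12 without mutant replicate 2. At 3 months it was 0.17 without mutant replicate 3, with members from 0.023 to 0.35, and 0.50 without mutant replicate 2. In both of these 3-month fits 8 of 8 members lay above 0. With the 2 Rfx6f/f controls only, the 3-month median was 0.33 and 7 of 8 members lay above 0.

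**Figure D2:**
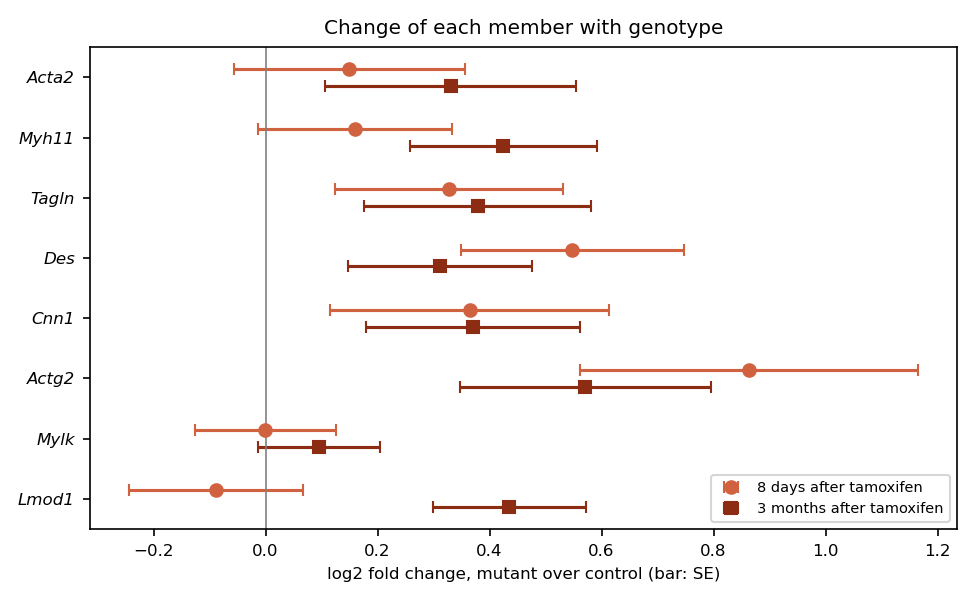
Log2 fold change of each member, libraries labelled mutant over control, at 8 days and at 3 months, with bars of 1 standard error from the edgeR fit. Actg2 has the largest estimate at both times, 0.86 and 0.57, and none of the estimates passed an adjusted p of 0.05.

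The difference between the 3-month and the 8-day effect was tested as an interaction in a fit of all 15 libraries. It passed for 0 of 8 members, against 0.785% of all genes, and 1 of 8 had an unadjusted p under 0.05, against 16.6%. DESeq2 and limma-voom also called 0. The differences ran from -0.31 for Actg2 to 0.51 for Lmod1 (SE 0.22, unadjusted p 0.0385, edgeR adjusted p 0.266), and 5 of 8 lay above 0, against 48.1% of all genes. The median of 0.054 was -0.10 without mutant replicate 3 of 3 months and 0.21 without control replicate 1 of 8 days.

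Summed over the 8 genes, the muscle transcripts stood at 2500.1, 3337 and 3688 CPM in the 8-day controls and at 4141, 4464, 2949 and 3265 CPM in the 8-day libraries labelled mutant. At 3 months the sums were 2246, 2314, 2178 and 2653 CPM in the controls and 2367, 2345, 3901 and 3113 CPM in the libraries labelled mutant. Mutant replicates 3 and 4 were the high libraries at 3 months, and mutant replicates 1 and 2 lay inside the control range. At 8 days control replicate 1 was the lowest and mutant replicates 1 and 2 the highest libraries.

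Libraries of the same group differed from one another in all members at once. In mutant replicate 3 of 3 months all 8 members lay above their group means, with a median deviation of 0.51 on the log2 scale, and in mutant replicates 1 and 2 all 8 lay below, with medians of -0.26 and -0.39. In the 8-day cohort control replicate 1 and mutant replicate 3 had all 8 below, with medians of -0.39 in each, and mutant replicate 2 had all 8 above, with a median of 0.34. The 3-month controls differed least, with medians from -0.12 to 0.17. The highest library of a cohort exceeded the lowest 1.37- to 3.67-fold at 8 days and 1.32- to 2.39-fold at 3 months, depending on the gene.

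**Figure D3:**
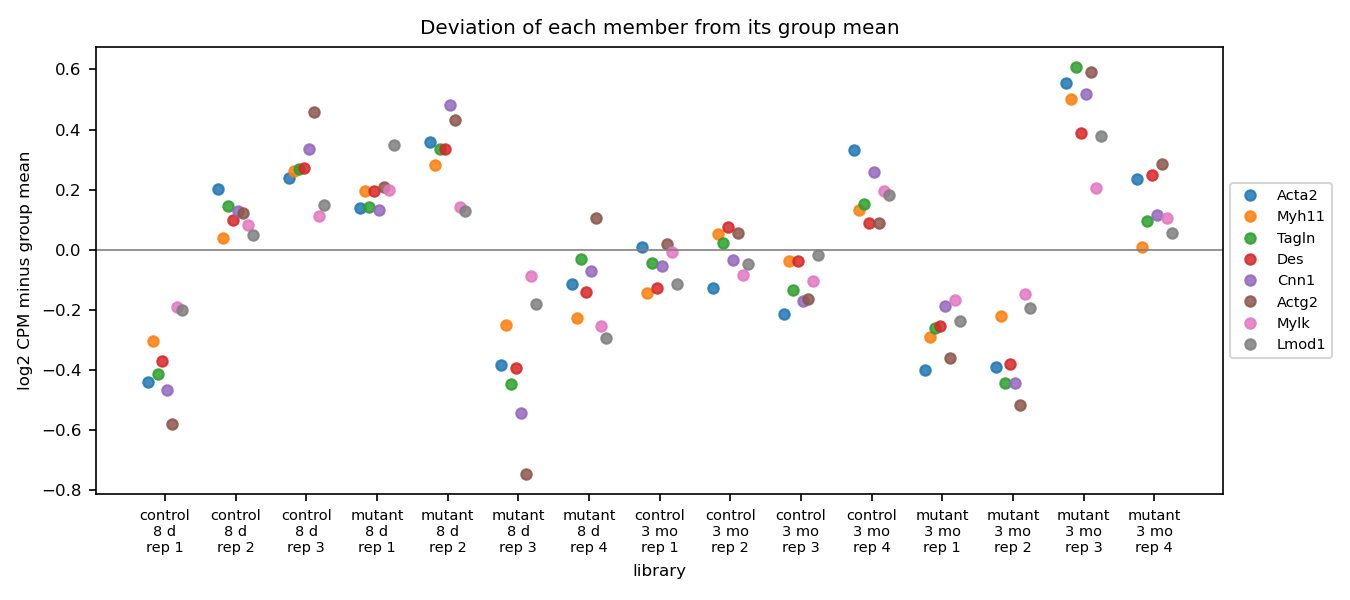
Deviation of each member from its group mean in each library, on the log2 CPM scale; each point is 1 gene. In 12 libraries all 8 genes lie on the same side of 0, among them mutant replicate 3 of 3 months (median 0.51) and control replicate 1 of 8 days (median -0.39).

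The members differed in how widely they varied. The within-group SD of log2 CPM was 0.45 for Actg2, 0.37 for Cnn1, 0.36 for Acta2, 0.34 for Tagln, 0.30 for Des, 0.27 for Myh11, 0.24 for Lmod1 and 0.18 for Mylk. Among the 5802 genes at or above the level of the lowest member, whose median SD was 0.12, the members stood between percentile 80.3 for Mylk and percentile 98.4 for Actg2. The actins and the thin-filament proteins thus had higher SDs than the kinase and leiomodin.

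Across the 15 libraries, with group means removed, the 28 pairs of members had a Pearson r from 0.72 for Actg2 with Mylk to 0.98 for Tagln with Cnn1, and a median of 0.91. These are descriptions over the same libraries, which share depth and tissue sampling. With Myh11 the other 7 members had r from 0.86 (Actg2) to 0.93 (Lmod1) and Spearman rho from 0.86 to 0.95, with permutation p of 8e-05 to 0.00113 for r and adjusted p of 0.117 to 0.168 over 17958 genes. Without the 2 libraries farthest from the median of Myh11, mutant replicate 3 of 3 months and control replicate 1 of 8 days, r was 0.76 to 0.91. Within the cohorts r was 0.86 to 0.97 over the 7 libraries of 8 days and 0.81 to 0.97 over the 8 of 3 months.

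The genes most like Myh11 in this sense were named by a ranking of r among genes with symbols and a mean log2 CPM of at least 0. They were Kif5a (r 0.99), a kinesin motor of neurons, Flna (0.98), which crosslinks actin, Synm (0.97), an intermediate filament protein that binds desmin, Sh3bgr (0.96), Napb (0.95), a neuronal vesicle fusion factor, Tpm2 (0.95), a tropomyosin, Prph (0.95), the neuronal intermediate filament peripherin, Myl9 (0.94), the light chain that the kinase phosphorylates, Csrp1 (0.94) and Dpp10 (0.94). Their rho was 0.89 to 0.98, their permutation p for r 4e-05 to 0.00046 and their adjusted p 0.117 to 0.123, and r was 0.88 to 0.98 without the same 2 libraries. Over all 17958 genes 0 had an adjusted p under 0.05 in this permutation within groups, and 1803 had an unadjusted p under 0.05. Of the 10 genes 5 belong to the list of other smooth muscle genes and Prph belongs to the list of enteric neuron markers.

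Marker lists were set beside Myh11 in the same way. The median r with Myh11 was 0.91 for the 7 other members, 0.85 for the 2 of 8 skeletal and cardiac muscle markers that passed the filter (Ckm and Tnnt2), 0.82 for 9 enteric neuron markers, 0.75 for 4 enteric glia markers, 0.70 for 6 pericyte and vascular muscle markers, 0.67 for 52 other smooth muscle and actin genes and 0.59 for 7 fibroblast markers. It was 0.52 for 3 adipocyte, 0.47 for 3 Cajal cell, 0.39 for 4 mesothelium and 0.35 for 4 endothelium markers. It was -0.17 for 2 ileal enterocyte markers, -0.18 for 11 epithelial markers, -0.35 for 6 immune markers and -0.023 over all genes. The epithelial markers ran from -0.67 to 0.70, with 4 of 11 above 0. The immune markers ran from -0.87 to 0.41, with 2 of 6 above 0.

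In mutant replicate 3 of 3 months, the library highest for every member, the 9 enteric neuron markers summed to 74.2 CPM against 50.1 to 56.5 CPM in the other 7 libraries of that cohort. The 7 fibroblast markers summed to 1971 CPM there against 1122 to 1429 CPM, and the 6 pericyte and vascular muscle markers to 686 CPM. Over the groups the pericyte list ran from 392 to 494 CPM in the 3-month controls and from 428 to 686 CPM in the libraries labelled mutant. The 11 epithelial markers ran from 14957 to 17196 CPM in the 3-month controls and from 13125 to 15175 CPM in the libraries labelled mutant, and mutant replicates 3 and 4 had the lowest sums. At 8 days the epithelial sums were 16266 to 17975 CPM and 14671 to 16184 CPM, without overlap. Of the 11 single markers only Krt8 and Krt19 lay below every control at 8 days, as 3.8% of all genes did. In edgeR 0 of 11 epithelial markers passed at either time, against 0.0915% and 9.28% of all genes. An unadjusted p under 0.05 was found for 2 at 8 days, against 8.8% of all genes, and for 6 at 3 months, against 29.4%. Their log2 fold change was above 0 for 0 of 11 at 8 days, against 49.3% of all genes, and for 1 of 11 at 3 months, against 51.2%. The 2 ileal enterocyte markers, Fabp6 and Slc10a2, summed to 2514 to 3195 CPM in the 3-month controls and 862 to 1490 CPM in the libraries labelled mutant, without overlap and lowest in mutant replicate 3, and to 1656 to 2358 CPM and 1313 to 2323 CPM at 8 days. Fabp6 fell at 3 months (log2 fold change -1.44, SE 0.20, edgeR adjusted p 0.00873), where 4.32% of all genes were called lower. Its groups did not overlap, as for 9.53% of all genes in this direction. Slc10a2 was not called (log2 fold change -0.55, edgeR adjusted p 0.188). Its groups overlapped at 3 months, at 469 to 604 CPM in the controls and 199.8 to 529 CPM with the mutant label. The 6 immune markers summed to 378 to 517 CPM in the 3-month controls and 265 to 387 CPM in the libraries labelled mutant. At 8 days these sums were 167 to 207.5 CPM in the controls and 189.6 to 447 CPM with the mutant label, with overlap, and 5 of 6 log2 fold changes lay above 0, against 49.3% of all genes. What part the makeup of the tissue piece had in the levels of the members was not tested.

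**Figure D4:**
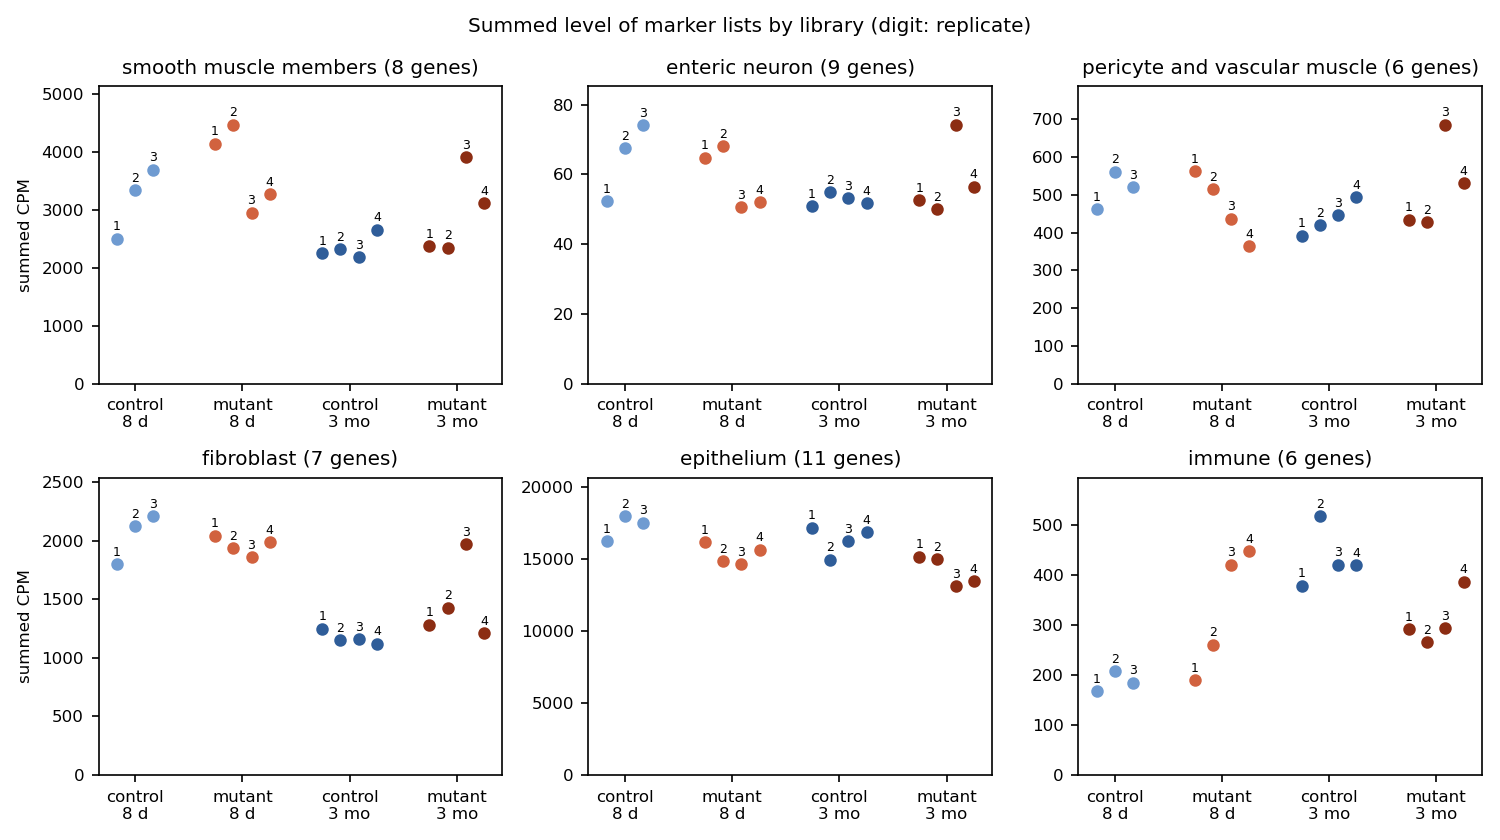
Summed CPM (TMM-scaled library size) of the 8 members and of the marker lists in each library, by group. Mutant replicate 3 of 3 months is high for the members (3901), the enteric neuron markers (74.2) and the fibroblast markers (1971), and low for the epithelial markers (13125).

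Of 54 other genes of smooth muscle and of the actin and myosin families, 52 were tested. At 8 days 0 of 52 were called by edgeR, against 0.0915% of all genes, and DESeq2 called 1 and limma-voom 0. An unadjusted p under 0.05 was found for 6, against 8.8% of all genes, and 35 had a log2 fold change above 0, against 49.3%, with a median of 0.050. At 3 months 5 of 52 rose and 1 fell, against 4.96% and 4.32% of all genes, and 44 lay above 0, against 51.2%, with a median of 0.35. The count of 6 ran from 2 to 9 with single libraries left out: it was 3 without control replicate 1, 3 without control replicate 2, 2 without control replicate 3, 4 without mutant replicate 3, 8 without control replicate 4, 9 without mutant replicate 1 and 5 without mutant replicate 2 or 4. With Rfx6f/f controls only it was 0. DESeq2 called 14 of the 52.

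The 6 called genes at 3 months included cell anchors, a motor and a receptor. Itga8, an integrin subunit of smooth muscle and fibroblasts, stood at 24.98, 19.7, 20.1 and 24.5 CPM in the controls and 40.8, 40.2, 42.5 and 32.3 CPM in the libraries labelled mutant (log2 fold change 0.80, SE 0.11, edgeR adjusted p 0.00856). Myh10, a non-muscle myosin heavy chain and paralog of Myh11, stood at 14.96, 13.9, 13.2 and 14.01 CPM against 20.1, 22.2, 24.8 and 19.7 CPM (0.63, SE 0.090, edgeR adjusted p 0.00873). In both genes every library labelled mutant lay above every control, as for 9.7% of all genes, and mutant replicate 3 was the highest library. Vcl, which links actin to adhesion sites, had a log2 fold change of 0.37 (edgeR adjusted p 0.0144), Dmd, the dystrophin gene, 0.38 (0.0312), and Chrm3, the muscarinic receptor that starts gut contraction, 0.58 (0.0368). Cnn3, a paralog of Cnn1 found outside muscle, fell by 0.41 on the log2 scale (edgeR adjusted p 0.0273). Exons of Vcl overlap Ap3m1 on the opposite strand over 25.52% of their length, and reads of both there cannot be told apart.

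Neither regulator passed in the edgeR fits of the single cohorts, and Myocd passed under some alternatives. Myocd stood at 6.37, 6.14, 6.37 and 7.99 CPM in the 3-month controls and at 8.25, 8.98, 12.9 and 9.04 CPM in the libraries labelled mutant, which did not overlap (log2 fold change 0.54, edgeR adjusted p 0.0623; 9.7% of all genes did not overlap with the mutants higher). DESeq2 called Myocd at 3 months with an adjusted p of 0.0165 and the joint edgeR fit with 0.0361, and over all alternatives its adjusted p ran from 0.0165 to 0.34. At 8 days the values were 13.3, 12.9 and 12.5 CPM against 15.2, 15.7, 12.1 and 10.7 CPM, with a log2 fold change of 0.059. Srf had a log2 fold change of -0.035 at 3 months (edgeR adjusted p 0.806). Myocd followed Myh11 across libraries with an r of 0.78 and a rho of 0.68 (permutation p 0.0105 and 0.0184, adjusted p 0.323 and 0.391), and r was 0.80 without the 2 farthest libraries. For Srf r was 0.57 and rho 0.49 (permutation p 0.106 and 0.112, adjusted p 0.587 and 0.594), and r was 0.31 without those libraries.

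The paralog Acta1, the alpha actin of skeletal muscle, did not follow the members. At 8 days it stood at 62.3, 109 and 68.3 CPM in the controls and at 179.8, 381, 279 and 409.5 CPM in the libraries labelled mutant, without overlap; 3.84% of all genes did so in this direction. At 3 months it stood at 99.2, 62.9, 98.1 and 63.4 CPM in the controls and at 699.9, 342, 194 and 84.4 CPM in the libraries labelled mutant, where replicate 4 lay within the control range. The log2 fold change was 1.97 (SE 0.31, unadjusted p 0.00015, edgeR adjusted p 0.0977) at 8 days and 2.03 (SE 0.55, unadjusted p 0.00494, edgeR adjusted p 0.0514) at 3 months, and neither passed. DESeq2 gave adjusted p of 3.19e-05 and 0.00953, and without a filter on low counts edgeR gave 0.023 and 0.0451. Over all alternatives the 8-day adjusted p ran from 3.19e-05 to 0.431, and the 3-month one from 0.00953 to 0.271. The difference between both times was 0.045 (edgeR adjusted p 0.986).

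Acta1 and the members ranked the libraries differently. Mutant replicate 1 of 3 months held the highest Acta1 level of the cohort and lay below its group mean for all 8 members, with a member sum of 2367 CPM inside the control range of 2178 to 2653 CPM, and mutant replicate 4 was second highest for 7 of 8 members and within the control range for Acta1. With Myh11 its r was -0.39 and its rho -0.44 over the 15 libraries (permutation p 0.359 and 0.187, adjusted p 0.764 and 0.669), with r at -0.54 without the 2 farthest libraries, -0.082 at 8 days and -0.56 at 3 months. Of the 8 skeletal and cardiac markers, Ckm had 165 to 643 counts and Tnnt2 59 to 351 over all libraries, and Myh6 and Myl2 had 0 to 3. The other 4, Myh4, Myh1, Myh2 and Tnnt3, had 0 to 13 counts in the 14 libraries other than mutant replicate 3 of 8 days, where they had 513, 259, 73 and 186 counts and Acta1 stood at 279 CPM. Without that library the 8-day log2 fold change of Acta1 was 2.01 (edgeR adjusted p 0.202). In stretches of 50 bases 2.02% of the Acta1 transcript is shared with other transcripts, against 0.33% for Acta2.

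**Figure D5:**
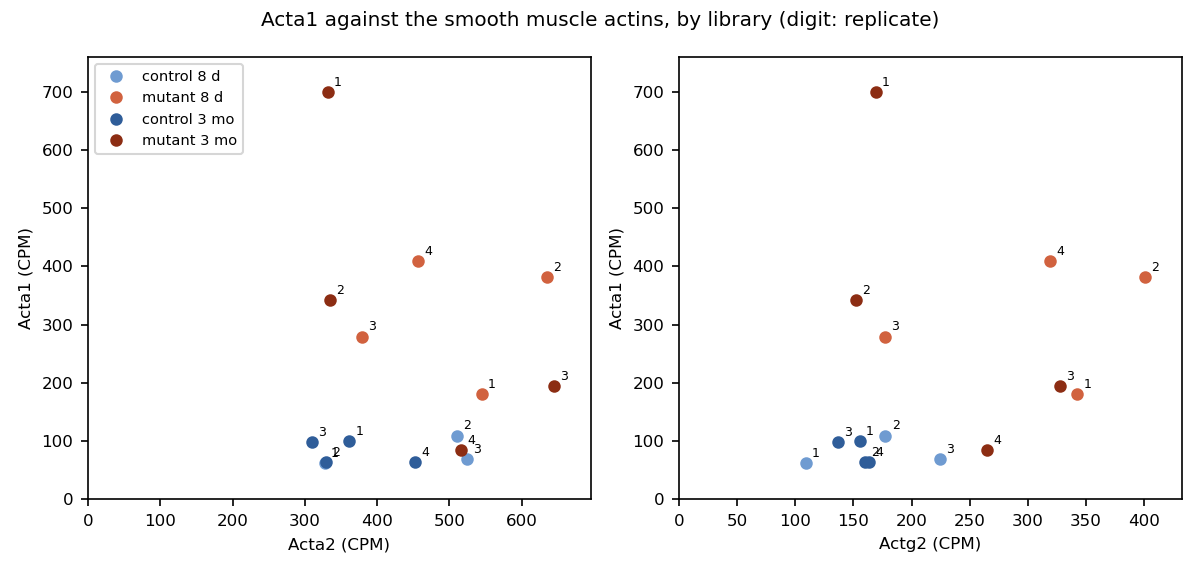
Acta1 in each library against the smooth muscle actins, Acta2 on the left and Actg2 on the right, in CPM on linear axes; each point is a library, coloured by group, and the digit is its replicate number. The 8-day libraries labelled mutant have 180 to 410 CPM of Acta1 against 62.3 to 109 CPM in the controls, and the library highest in Acta1 at 3 months, at 699.9 CPM, is not high in Acta2.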

How the data were processed

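Ileum RNA was sequenced in 15 libraries from total RNA depleted of ribosomal RNA, as the labels' protocols say, although the molecule label names polyadenylated RNA. RNA was extracted with TRI-reagent or an RNeasy Midi kit, and which library had which is not given in the sources used here. The authors deposited raw read counts per Ensembl gene, 1 table for each cohort. The submitters' processing notes name bcl2fastq 2.17.1.14, Bowtie 1.0.0, Bowtie2 2.1.0, TopHat2 2.0.10, HTSeq 0.6.1 and the mouse build mm9, without their roles. The annotation release and strand setting are not given in the sources used here, so antisense and overlapping genes cannot be separated.

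Columns were matched to samples by title. GENCODE release M21 (GRCm38) gave symbols for 32897 of 37620 identifiers (87.45%), and lengths and exon overlaps. Each cohort was tested with the edgeR 4.0.16 quasi-likelihood test (R 4.3.3) on the deposited counts, after filterByExpr with a minimum count of 10 and TMM scaling, and all p-values were adjusted over all genes tested by Benjamini-Hochberg. A gene was called at an adjusted p under 0.05, two-sided. The time difference was the interaction of 4 group means fitted over all 15 libraries. Likeness to Myh11 used log2 CPM with a prior count of 2, deviations from group means and 100000 two-sided permutations within groups. Library totals were 26.1 to 54.5 in units of 1000000 counts, and within a group no pair of libraries agreed within sampling noise (lowest chi-square per degree of freedom 12.1), so each counted as 1 replicate. Alternatives were DESeq2 1.42.0, limma-voom (limma 3.58.1), RLE scaling, TMM without muscle genes, no filter, 10 counts in every library, a joint fit, leaving out the Rfx6f/+ controls and leaving out each library in turn. The fits were tested on simulated data first. Named genes were the 8 members, and called genes, regulators and paralogs from a list of 54 further genes. The 10 genes most like Myh11 and 5 of those least like it were also named. The members, lists and tests were chosen with earlier results of these data known.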

Additional observations from a re-analysis of the deposited data

Results flagged for a closer look

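In 57 checks of single libraries against the rest of their group, 3 stood apart, and chance alone gives about 1 in 20, or 2.85. The 8-day controls, a group of 3 libraries, were not among these checks. Actc1, the cardiac actin gene, was at 1.719 CPM in mutant replicate 2 of 8 days and at 1.203 to 1.237 CPM in the other 3. Myocd was at 7.99 CPM in control replicate 4 of 3 months, against 6.143 to 6.37 CPM in the other controls, and at 12.87 CPM in mutant replicate 3 of 3 months, against 8.254 to 9.042 CPM. Both libraries also had all 8 members above their group means.

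For 4 of the 52 other muscle genes tested, the change at 3 months differed from that at 8 days in the interaction test (edgeR quasi-likelihood, Benjamini-Hochberg adjusted), against 0.785% of all genes. The differences of log2 fold changes were 0.3962 for Vcl, 0.7427 for Itga8, 0.5861 for Myh10 (each adjusted p 0.0487) and 1.812 for Actc1 (adjusted p 0.0497), all higher at 3 months. All 4 lay close to the threshold, and with Rfx6f/f controls only or by limma-voom 0 of 52 passed, while DESeq2 called 6. The count was 0 without any single 8-day control, without mutant replicate 3 or 4 of 8 days, without control replicate 1, 2 or 3 of 3 months and without mutant replicate 3 of 3 months. It was 1 without mutant replicate 2 of 8 days or mutant replicate 1 of 3 months, and 2 without control replicate 4 of 3 months.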

How the results depend on the processing

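No paired analysis was possible because the labels give no replicate numbers shared between the groups compared. The count of members called changed with 1 setting: DESeq2 called 1 of 8 at 3 months. Of the fold changes of single members under the alternatives, 388 kept their sign and call, 27 turned sign and 1 was newly called. Mylk at 8 days was 0.00097 with 10 counts in every library and 0.0029 in the joint fit, and at 3 months -0.00013 with Rfx6f/f controls only. For the time difference Cnn1 was 0.00071 with DESeq2, 0.0014 with RLE scaling and 0.011 without a filter, and Tagln was -0.031 with limma-voom. With single libraries left out, the 8-day change ran from -0.040 to 0.27 for Acta2, -0.091 to 0.078 for Mylk and -0.22 to 0.0020 for Lmod1. The time difference ran from -0.023 to 0.37 for Acta2, -0.18 to 0.22 for Tagln, -0.19 to 0.20 for Cnn1 and -0.0052 to 0.18 for Mylk, and Srf at 3 months from -0.083 to 0.037. The cause was not tested. The median r of the 10 genes most like Myh11 was 0.9528. The medians of r in each cohort alone and of rho over all libraries ran from 0.9429 to 0.9715. As the 10 genes were picked by r over these same libraries, these medians do not test the likeness. The medians of the summed level moved by less than the spread between libraries under every alternative. Over all genes the calls were 16 at 8 days (DESeq2 178, no filter 27, joint fit 25, single libraries left out 8 to 200), 1586 at 3 months (DESeq2 2983, Rfx6f/f controls only 36, single libraries left out 391 to 1521) and 141 for the difference (DESeq2 1017, limma-voom 41, no filter 223, strict filter 248, Rfx6f/f controls only 5, single libraries left out 10 to 749). The lowest count of a member was 690, and no fit at matched depth was run.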

Other observations

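The 2 control genotypes of 3 months were set side by side for the members. The ranges of the 2 Rfx6f/f and the 2 Rfx6f/+ controls overlapped for 6 of 8. They did not for Acta2, at 361.5 and 452.5 CPM in Rfx6f/f and 329 and 309.9 CPM in Rfx6f/+, nor for Mylk, at 645 and 742 CPM in Rfx6f/f and 611 and 602 CPM in Rfx6f/+. With 2 libraries of each genotype the difference was not tested.

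Among the genes that ran most opposite to Myh11 across the 15 libraries were Stk10 (r -0.88), a kinase of lymphocytes, and Slco5a1 (-0.88). Others were Cd3e (-0.87), a chain of the T cell receptor complex, Hnrnpul1 (-0.87) and Pias1 (-0.87). By r these 5 genes stood at ranks 17952 to 17955 and 17958 of 17958, so they are not the 5 lowest of all genes. Their rho was -0.84 to -0.90, their permutation p for r 0.00015 to 0.00261 and their adjusted p 0.117 to 0.209 over 17958 genes, and r was -0.72 to -0.80 without mutant replicate 3 of 3 months and control replicate 1 of 8 days.

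Of 67 markers on the 12 lists of other cell types, 61 were tested at 3 months. There 8 were called higher and 1 lower by edgeR, against 4.96% and 4.32% of all genes, and 24 had an unadjusted p under 0.05, against 29.4%. DESeq2 called 10 higher and 6 lower, and edgeR with Rfx6f/f controls only called 0, with 16 at an unadjusted p under 0.05. The genes called higher were 3 of 6 pericyte and vascular muscle markers, Cspg4 (log2 fold change 0.71), Pdgfrb (0.54) and Abcc9 (0.60), and 2 of 4 endothelial markers, Cdh5 (0.49) and Kdr (0.58). The others were 1 of 7 fibroblast markers, Pdgfra (0.64), 1 of 3 markers of Cajal cells, Ano1 (0.61), and 1 of 9 enteric neuron markers, Snap25 (0.70), a list that ran from -0.22 to 0.94. Mesothelial markers had a median of -0.94 with 0 of 4 called, and adipocyte markers a median of -0.020 with 0 of 3 called. At 8 days 0 of 60 were called by edgeR, against 0.0915% of all genes, and 9 had an unadjusted p under 0.05, against 8.8%; DESeq2 called 1.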
